A study of Sus scrofa with 28 samples.

Results

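FBXO32, GABARAPL1 and CDKN1A are 3 genes known for their response to muscle wasting, and their levels were measured at weaning in the loin muscle of piglets of 2 genetic types. They were taken from the array table by gene symbol, as the annotation of the array gives it, since the tables of the study name none of their probe sets. FBXO32 (Entrez gene 733657) has 2 probe sets, Ssc.4368.1.S1_at and Ssc.4368.3.S1_at. GABARAPL1 (Entrez gene 100462751) has Ssc.22588.1.S1_at and CDKN1A (Entrez gene 100152215) has Ssc.5737.1.S1_at. These 3 genes and 4 probe sets stand among 2275 named genes and 5226 probe sets. The table holds only probe sets that varied between piglets, and each of the 4 met that filter of the study, with 39.3% to 64.3% of its values at least 1.5-fold from its median where over 20% were required.

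The piglets were 28 males of 28 days of age, slaughtered at weaning. Of these, 14 were purebred Iberian (IB) and the other 14 were Duroc × Iberian (DU×IB) piglets, from Duroc boars and Iberian sows, so that all of the mothers were Iberian. RNA of the longissimus dorsi muscle of each piglet was hybridized to 1 porcine genome array, so a value is a log2 signal of whole muscle, in which fewer cells of a type and less RNA per cell cannot be told apart. They came from 10 purebred and 3 crossbred litters, so most DU×IB piglets had littermates in their group, but the labels do not say which piglets shared a litter. Piglets were therefore treated as independent, and every p between the genetic types is too small to the extent that littermates are alike.

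Skeletal muscle loses mass when the breakdown of its proteins outruns their synthesis, as it does in fasting, disuse or an excess of glucocorticoids. FBXO32, also called atrogin-1 or MAFbx, is the F-box subunit of a muscle ubiquitin ligase that marks proteins for the proteasome, and it is one of the best known markers of atrophy. GABARAPL1 belongs to the ATG8 family, small ubiquitin-like proteins that are tied to the membrane of the autophagosome and take part in the delivery of its cargo to the lysosome. CDKN1A encodes p21, an inhibitor of cyclin-dependent kinases that is a target of p53 and holds cells out of the cycle, and in muscle it also accompanies the exit of myoblasts from division and several forms of wasting. FOXO transcription factors, which insulin and IGF1 signalling keeps out of the nucleus, are known to activate all of these genes.

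The arrays did not form a single set. Spike-in controls of bacterial origin, bioB and bioC, parted them into 16 arrays, which are the piglets numbered 1 to 8 of each genetic type, and 12 arrays, which are those numbered 9 to 14, and each of these hybridization series holds both genetic types. The median log2 signal of an array was 6.01 to 6.71 in the series of 16 and 6.87 to 7.05 in the series of 12. Differences between the series carry both the hybridization and the piglets, which cannot be told apart. The differences of the 4 probe sets between the genetic types are therefore given also with series as a block, and again for the arrays of 1 series at a time. For other genes, limma p-values between the genetic types are from the fit without the block unless the block is named. In the purebred group, piglet 9 had the highest level of all 28 for 871 probe sets, 16.7% of the table, and piglet 3 had the lowest for 1421 probe sets, 27.2%. The 4 skeletal muscle fibre markers in the table, ATP2A1, RYR1, TPM2 and PYGM, had a mean log2 level of 11.35 to 12.97 in every piglet.

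FBXO32 was the most variable of the 3 genes. With the brighter of its probe sets, Ssc.4368.1.S1_at, the log2 level in IB was 6.36 at the lowest, 7.74 at the median and 12.31 at the highest. In DU×IB it was 5.59, 7.31 and 10.30. The ranges overlapped from 6.36 to 10.30, with 1 IB piglet above all DU×IB piglets and 1 DU×IB piglet below all IB piglets. The dimmer probe set, Ssc.4368.3.S1_at, ran from 4.21 to 10.99 around a median of 6.51 in IB, and from 4.22 to 8.90 around a median of 5.33 in DU×IB. The highest piglet stood 105-fold above the lowest for the first probe set and 110-fold for the second. Their SD within genetic type and series, 1.51 and 1.60 on the log2 scale, was larger than that of 98.9% and 99.1% of all probe sets.

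The high values of FBXO32 came from a few piglets of both genetic types. Below the highest piglet, the widest step in the upper part of the range lay between 8.49 and 9.61, and 6 piglets stood above it, 4 of IB and 2 of DU×IB. They were IB piglets 9 (12.31), 3 (10.25), 10 (9.77) and 11 (9.61) and DU×IB piglets 7 (10.30) and 14 (9.94). The dimmer probe set had the same 6 piglets at its top. The 2 probe sets ranked the piglets in nearly the same order, with Pearson's r = 0.970 and Spearman's rho = 0.952 over the 28 piglets once the means of genetic type and series were removed (permutation p = 1e-05 for both, the smallest that the permutations can give).

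GABARAPL1 varied over a narrower range. Its log2 level in IB was 4.68 at the lowest, 5.97 at the median and 7.64 at the highest, and in DU×IB it was 4.81, 5.72 and 6.71. The 2 groups overlapped from 4.81 to 6.71. Of the 6 piglets of highest FBXO32, 4 were also among the 6 of highest GABARAPL1, namely IB piglets 9 (7.64), 10 (6.95) and 11 (6.88) and DU×IB piglet 14 (6.71). The other pair did not stand high for GABARAPL1, with 5.83 in IB piglet 3 and 5.64 in DU×IB piglet 7, which placed them at 13 and 19 of 28.

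CDKN1A was spread over a range like that of GABARAPL1, with 8.23-fold from the lowest to the highest piglet against 7.78-fold. Its log2 level in IB was 8.49 at the lowest, 9.38 at the median and 10.88 at the highest, and in DU×IB it was 7.84, 8.76 and 9.66. There were 4 IB piglets above all of DU×IB and 2 DU×IB piglets below all of IB, and the remaining values overlapped between 8.49 and 9.66. Its highest values were in IB piglets 9 (10.88) and 3 (10.66), which were also high for FBXO32. DU×IB piglet 14, high for FBXO32 and GABARAPL1, had the lowest CDKN1A of all 28 piglets, at 7.84.

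**Figure D1:**
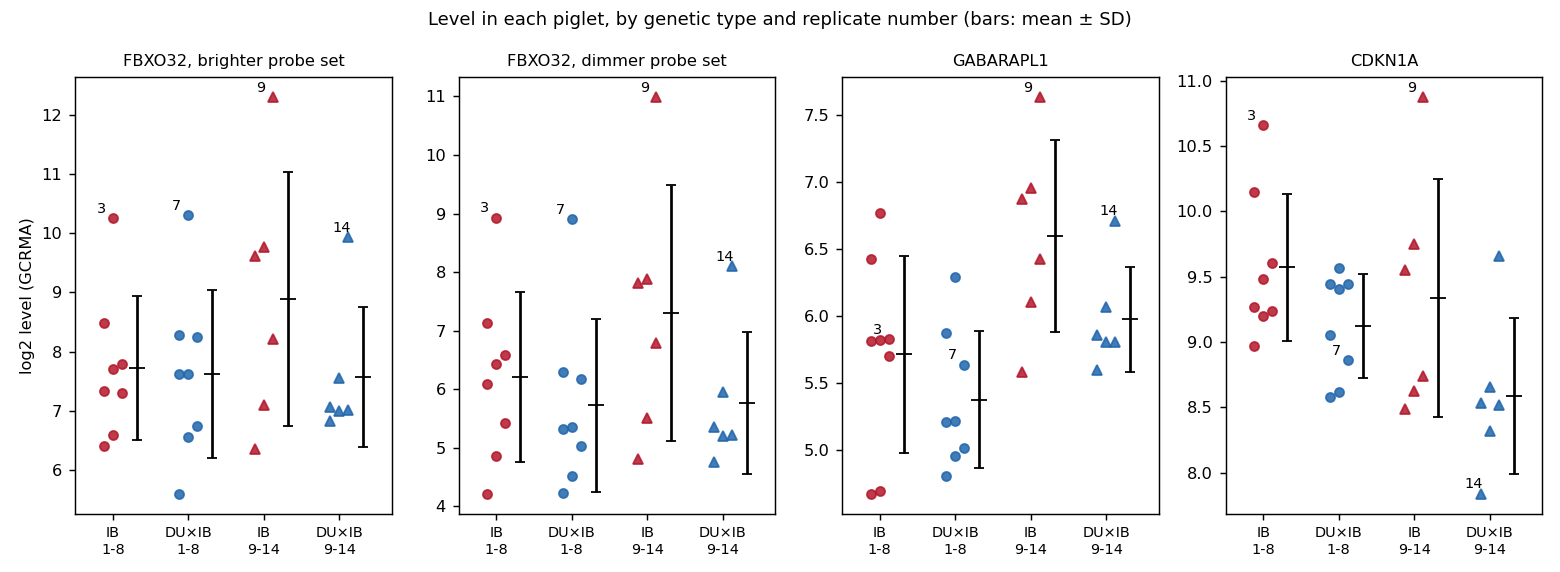
Log2 level (GCRMA, vertical axis) of the 4 probe sets in each of the 28 piglets, by genetic type (red IB, blue DU×IB) and by hybridization series (circles, piglets 1 to 8; triangles, piglets 9 to 14), with the mean and SD of each group beside the points. Numbers mark IB piglets 3 and 9 and DU×IB piglets 7 and 14; IB piglet 9 is at the top of every panel, with 12.31 for the brighter FBXO32 probe set and 10.88 for CDKN1A.

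The first comparison asks whether the genes differ between the genetic types. All 4 probe sets had a lower mean in DU×IB, and none passed the test. For FBXO32, mean log2 levels were 8.23 ± 1.71 (SD, n = 14) in IB and 7.60 ± 1.27 (SD, n = 14) in DU×IB with the brighter probe set, a difference, as DU×IB minus IB, of -0.63 (SE 0.52, limma adjusted p = 0.944). With the dimmer one they were 6.68 ± 1.81 and 5.74 ± 1.31, a difference of -0.93 (SE 0.54, limma adjusted p = 0.724). The 95% intervals of these differences, not adjusted for the number of probe sets, ran from -1.68 to 0.42 and from -2.04 to 0.17.

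For GABARAPL1, mean log2 levels were 6.10 ± 0.83 in IB and 5.63 ± 0.54 in DU×IB (SD, n = 14 each), a difference of -0.46 (SE 0.26, 95% interval -0.99 to 0.07, limma adjusted p = 0.697). For CDKN1A they were 9.47 ± 0.71 and 8.89 ± 0.55 (SD, n = 14 each), a difference of -0.58 (SE 0.24, 95% interval -1.07 to -0.09). CDKN1A came closest to the threshold, with an unadjusted p of 0.0215 and a limma adjusted p of 0.439. Of all 5226 probe sets, 52 differed between the genetic types at an adjusted p under 0.10, which is 0.995% of the table, and 0 of the 4 described here were among them. Of the DU×IB piglets, 10 of 14 lay below the IB median for the brighter FBXO32 probe set, 12 for the dimmer one, 11 for GABARAPL1 and 9 for CDKN1A.

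With series as a block, the differences were the same and 145 probe sets passed, 2.77% of the table, and again 0 of the 4 did. The limma adjusted p-values were 0.672 and 0.490 for the FBXO32 probe sets, 0.341 for GABARAPL1 and 0.213 for CDKN1A. A two-sided permutation test of each probe set alone, with the piglets shuffled within their series, gave unadjusted p = 0.282 and 0.132 for FBXO32, 0.0534 for GABARAPL1 and 0.0180 for CDKN1A. By limma with the block, the unadjusted p was 0.0445 for GABARAPL1 and 0.0147 for CDKN1A, and 722 of all probe sets had an unadjusted p under 0.05.

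Within the series of 16 arrays, the difference of FBXO32 was -0.11 (SE 0.59) and -0.48 (SE 0.66) for its probe sets, that of GABARAPL1 -0.34 (SE 0.30) and that of CDKN1A -0.45 (SE 0.24). Within the series of 12 arrays they were -1.33 (SE 0.87), -1.53 (SE 0.89), -0.62 (SE 0.31) and -0.75 (SE 0.40), in the same order. Each was negative in both series, as were 26.0% of all probe sets. None of the differences given here passed, with limma adjusted p-values of 0.997 in the first series and 0.253 to 0.387 in the second. Two-sided exact permutation p-values, not adjusted, were 0.0859 to 0.877 in the first series and 0.0887 to 0.223 in the second. Their sizes were larger in the series of 12 for every probe set described here, but the difference between the series was not beyond its error. The interaction of genetic type and series had limma adjusted p-values of 0.853 to 0.899, and 0 of the 5226 probe sets passed it, with 333 at an unadjusted p under 0.05.

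IB piglet 9 carried part of each difference. Without it the differences were -0.32 and -0.60 for the FBXO32 probe sets, -0.34 for GABARAPL1 and -0.47 for CDKN1A, with limma adjusted p-values of 0.651 to 1.00. For each probe set this is the smallest of the 28 differences obtained by leaving out 1 piglet at a time. Without IB piglet 3, the other array that stands apart, they were -0.47, -0.76, -0.48 and -0.49 in the same order, and without DU×IB piglet 7 the brighter FBXO32 probe set reached -0.84. All 28 of them were negative for all 4 probe sets, and 0 passed. Without IB piglet 9, the interaction with series was -0.54 and -0.31 for FBXO32, -0.07 for GABARAPL1 and 0.01 for CDKN1A, against -1.22, -1.05, -0.28 and -0.30 with it.

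**Figure D2:**
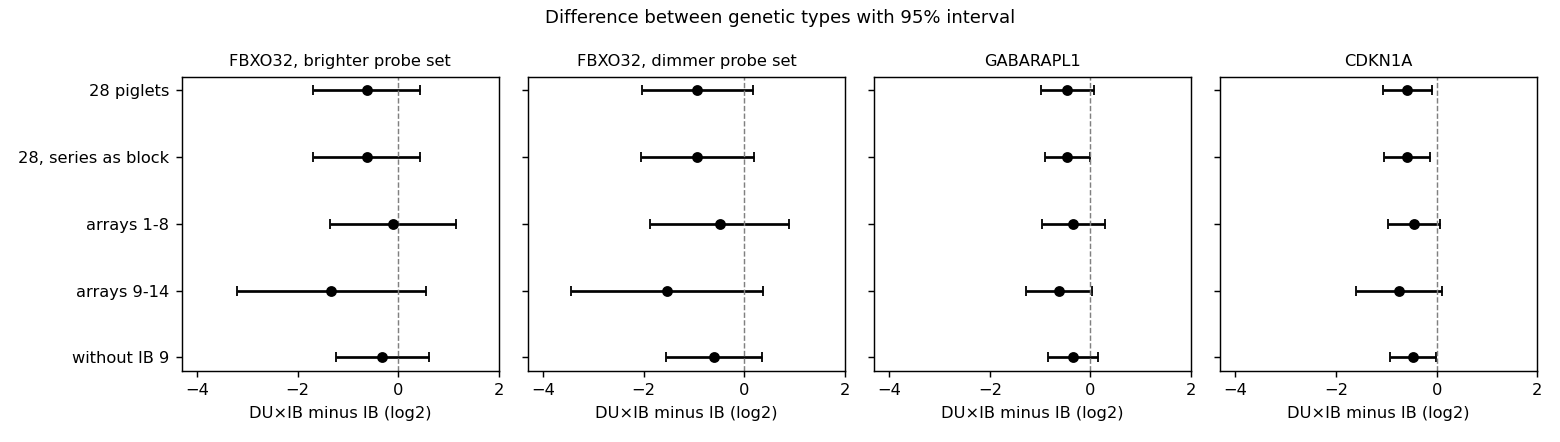
Difference between genetic types, DU×IB minus IB on the log2 scale (horizontal axis), for each probe set over the 28 piglets, with the series as a block, within each series and without IB piglet 9; points are limma estimates and bars their 95% intervals, not adjusted for the number of probe sets. All points lie left of 0, from -0.11 to -1.53, and most bars cross it.

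The second comparison is between the hybridization series, which took up most of the table. With genetic type in the model, 4185 of the 5226 probe sets, 80.1%, differed at an adjusted p under 0.10, and the median difference of all probe sets was 0.57 higher on the log2 scale in the series of 12. The values of each gene are to be read against that shift. The brighter FBXO32 probe set was at 7.67 ± 1.28 (SD, n = 16) and 8.23 ± 1.79 (SD, n = 12), a difference of 0.55 (SE 0.53, limma adjusted p = 0.342). The dimmer one differed by 0.57 (SE 0.55, limma adjusted p = 0.355). Both are at the middle of the table, with 49.3% and 49.8% of all probe sets having a lower difference. These values rested on IB piglet 9, without which they were 0.20 and 0.19 while the median of all probe sets was again 0.57. By genetic type the brighter probe set differed by 1.16 (SE 0.77) in IB and by -0.06 (SE 0.61) in DU×IB, and the dimmer one by 1.09 (SE 0.83) and 0.04 (SE 0.62).

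GABARAPL1 was at 5.55 ± 0.64 (SD, n = 16) in the first series and at 6.29 ± 0.64 (SD, n = 12) in the second, a rise of 0.74 (SE 0.22, limma adjusted p = 0.00367). It was also seen within each genetic type, as 0.88 in IB and 0.60 in DU×IB, with limma adjusted p-values of 0.0433 and 0.0382, where 69.8% and 72.7% of all probe sets passed. In size it was not far from the middle of the table, as 59.3% of all probe sets had a lower difference. CDKN1A had the opposite sign, at 9.35 ± 0.53 and 8.96 ± 0.83, a difference of -0.38 (SE 0.23, limma adjusted p = 0.123). Only 22.6% of all probe sets had a lower difference than CDKN1A.

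Both results depended on the scaling of the arrays, here shown by setting the level of each array to its own median. With this centring 69.3% of the probe sets still differed and the median difference was 0.09. The rise of GABARAPL1 was then 0.26 (SE 0.22, limma adjusted p = 0.305) and no longer passed, while CDKN1A fell by 0.86 on the log2 scale (SE 0.25, limma adjusted p = 0.00398) in the series of 12. The centred level of CDKN1A was 2.83 ± 0.69 (SD, n = 16) above the array median in the first series and 1.96 ± 0.84 (SD, n = 12) above it in the second. The FBXO32 probe sets differed by 0.08 and 0.09, with limma adjusted p-values of 0.907 and 0.896. CDKN1A had a difference of -0.54 without IB piglet 9 on the deposited scale, and this passed (limma adjusted p = 0.0168), as it did without DU×IB piglet 11 or without IB piglets 6 or 12.

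**Figure D3:**
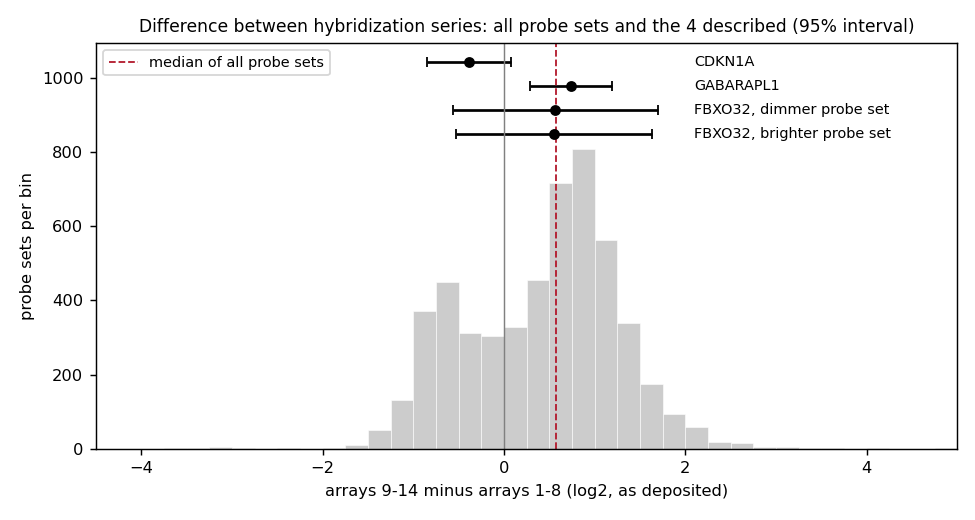
Number of probe sets (vertical axis, grey bars, bins of 0.25) by their difference between hybridization series, arrays 9 to 14 minus arrays 1 to 8 on the log2 scale as deposited, with the 4 probe sets described here above them as limma estimates with 95% intervals. The red dashed line is the median of all probe sets at 0.57, on which both FBXO32 probe sets lie, while CDKN1A lies left of 0 at -0.38.

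The genes were then compared with each other across the 28 piglets, after the mean of each genetic type and series had been removed. FBXO32 and GABARAPL1 moved together, with Pearson's r = 0.536 (permutation p = 0.00728, adjusted over 3 pairs 0.0218) and Spearman's rho = 0.581 (permutation p = 0.00417, adjusted 0.0125). Leaving out the pair of piglets farthest from the median of FBXO32, IB 9 and DU×IB 7, gave r = 0.448, and leaving out IB piglet 9 or 3 alone gave 0.431 or 0.561. The relation was not equally strong in both series, with r = 0.884 (permutation p = 0.00241, adjusted 0.00723) over the 12 piglets of the second, or 0.698 without the pair farthest from the median of FBXO32, and r = 0.255 (permutation p = 0.346, adjusted 0.346) over the 16 of the first. The difference between these was not tested. FBXO32 and CDKN1A had r = 0.268 (permutation p = 0.268, adjusted 0.403) and rho = 0.056 (permutation p = 0.804), and r was -0.02 without IB piglet 9. GABARAPL1 and CDKN1A had r = -0.03 (permutation p = 0.881) and rho = -0.25 (permutation p = 0.241), and r was -0.32 without IB piglet 9.

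**Figure D4:**
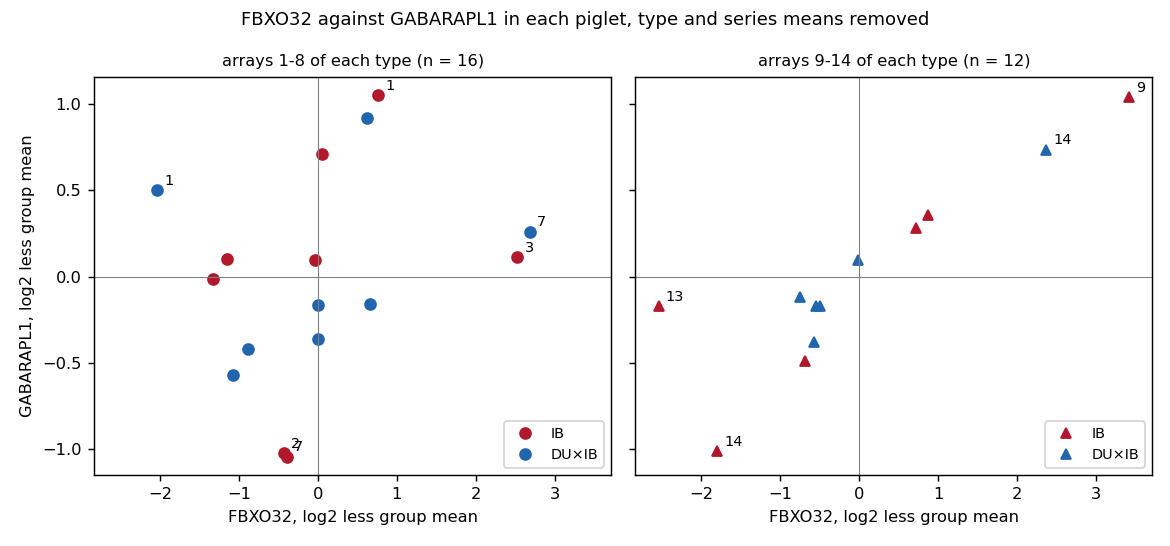
FBXO32 (brighter probe set, horizontal axis) against GABARAPL1 (vertical axis) in each piglet, as log2 levels less the mean of their genetic type and series, in the series of 16 (left) and of 12 (right), red for IB and blue for DU×IB, with the numbers of the piglets farthest from 0. The points of the series of 12 follow a line with r = 0.884, and those of the series of 16 are scattered, with r = 0.255.

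The genes with the most similar pattern over the 28 piglets differed for each of the 3. These are descriptions on the same arrays and the same residuals, ranked among 2272 other named genes. Nearest to FBXO32 were CTSD, the lysosomal protease cathepsin D (r = 0.77), FOXO1 (r = 0.75), the small heat shock protein gene HSPB7 (r = 0.70), FLAD1, an enzyme of FAD synthesis (r = 0.69), and the transcription factor gene POU2F1 (r = 0.67). The dimmer FBXO32 probe set shared 4 of these 5 genes. The most opposed were PPP3CA, the catalytic subunit of calcineurin (r = -0.70), and SRF, serum response factor, which drives actin and other muscle genes (r = -0.69).

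GABARAPL1 was nearest to FKBP5 (r = 0.83), a chaperone that is a standard target of the glucocorticoid receptor. It was followed by BAG3 (r = 0.81), a co-chaperone of selective autophagy in muscle, NT5C2 (r = 0.80), a nucleotidase, CTSC (r = 0.80), the lysosomal cathepsin C, and GADD45B (r = 0.78), a stress response gene. By series, r was 0.79 to 0.92 in the series of 16 and 0.59 to 0.83 in the series of 12. The genes were chosen on these same piglets, so r within a series is not a separate check. SRF was the most opposed gene, with r = -0.76.

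CDKN1A was nearest to FTL (r = 0.81), the light chain of ferritin, and MT-2B (r = 0.78), a metallothionein. KDELR1, a receptor that returns proteins to the endoplasmic reticulum, ZFAND2B, a proteasome adaptor, and MKRN1, a ubiquitin ligase, followed with r = 0.77, 0.76 and 0.76. FABP3, the fatty acid binding protein of muscle, was the most opposed, with r = -0.82. Of the 16 genes nearest to any of the 4 probe sets, 0 differed between the genetic types by limma at an adjusted p under 0.10, with or without series as a block (1 at an unadjusted p under 0.05), and 15 had a lower mean in DU×IB. Of all 5226 probe sets, 0.995% passed without the block and 2.77% with it. Without the block 444 of them had an unadjusted p under 0.05, and 47.5% had a lower mean in DU×IB.

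**Figure D5:**
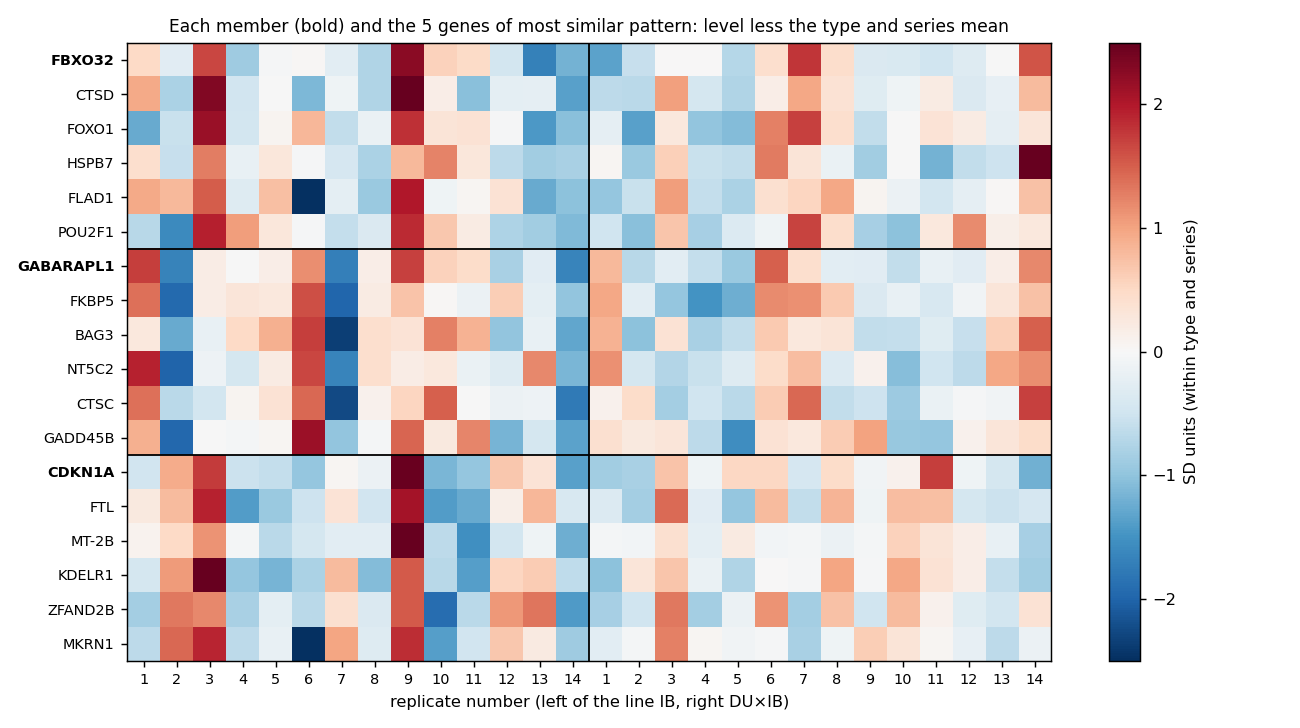
Level of FBXO32, GABARAPL1 and CDKN1A (bold) and of the 5 genes nearest to each, in each of the 28 piglets (columns, by replicate number, IB left and DU×IB right of the line), less the mean of genetic type and series and in units of the SD within them (red above, blue below). IB piglet 9 is red for FBXO32 and CDKN1A and the genes nearest to them, and IB piglet 7 is blue for GABARAPL1, with r of 0.83 between GABARAPL1 and FKBP5.

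Wider lists of genes were set beside them. In each of the 6 lists below, 0 genes passed the limma test between genetic types, with or without series as a block, and counts of directions are therefore descriptions, to be read against a table in which 47.5% of all probe sets had a lower mean in DU×IB and the median difference was 0.02. Counts at an unadjusted p under 0.05 are from limma without the block, in which 444 of all 5226 probe sets had such a p. Some genes stand in more than 1 list, and the genes named from them were chosen after their values were seen. Of the muscle atrophy list, 18 of 47 genes were measured, and 15 of them without the 3 genes described here. Of these 15 the mean was lower in DU×IB for 13, with a median difference of -0.25, for 12 within the series of 16 and for 11 within the series of 12 (1 of the 15 at an unadjusted p under 0.05). MAP1LC3B, another ATG8 protein, had 9.47 in IB and 9.23 in DU×IB (limma adjusted p = 0.967). GADD45A, an early gene of denervation and disuse, had 6.98 and 6.40 (limma adjusted p = 0.953). Their SDs in IB were 0.72 and 1.86, and IB piglet 9 had the highest level of both, at 11.25 and 11.26. ATF4, a transcription factor of the amino acid and stress response, had 13.59 and 13.15, a difference of -0.44 with an unadjusted p of 0.0322 and a limma adjusted p of 0.503. By series, the difference of ATF4 was -0.09 in the series of 16 and -0.90 in the series of 12. MSTN, myostatin, which restrains muscle growth, had 6.15 and 5.75 on the probe set used here. Its difference was 0.38 in the series of 16 and -1.44 in the series of 12. The paper lists MSTN on another probe set, whose values are not given here, so this change of sign is described for 1 probe set only. TRIM63, the other classical muscle ubiquitin ligase, is on a probe set assigned to more than 1 gene and was left out.

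Of the glucocorticoid and FOXO response list 16 of 32 genes were measured, and 15 of the 16 had a lower mean in DU×IB, with a median difference of -0.22 (0 of 16 at an unadjusted p under 0.05). FKBP5 had 9.47 in IB and 9.04 in DU×IB, CEBPD 10.38 and 9.93, and GLUL, glutamine synthetase, 13.04 and 12.69, with limma adjusted p-values of 0.998, 0.773 and 0.772. In their pattern over the piglets these genes stood nearer to GABARAPL1 than genes at large, with a median r of 0.45 and 7 of 16 above 0.5, where 4.84% of all genes were. The same held for FBXO32 to a lesser extent, with a median r of 0.25 and 4 of 16 above 0.5, against 3.04% of all genes. For CDKN1A the median was -0.06 and 0 of 16 were above 0.5. Nearness to GABARAPL1 and FBXO32 was not particular to this list. Of the 15 other muscle atrophy genes, some of which are in both lists, 7 were above 0.5 with GABARAPL1 (median r = 0.50) and 4 with FBXO32 (median r = 0.21). Of the 20 other p53 genes, 5 were above 0.5 with GABARAPL1 and 0 with FBXO32.

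Of the autophagy machinery 16 of 48 genes were measured, and 12 of the 15 other than GABARAPL1 had a lower mean in DU×IB, with a median difference of -0.09 (0 of 15 at an unadjusted p under 0.05). Their pattern was not close to that of GABARAPL1, with a median r of 0.09 and 0 of 15 above 0.5. MAP1LC3A, with r = 0.48, and MAP1LC3B, with r = 0.32, are the relatives of its ATG8 family that this list finds in the table, and GABARAP and GABARAPL2 were not analysed here. Of the F-box proteins and the core of their ligase 7 of 66 were measured, and 5 of the 6 other than FBXO32 had a lower mean in DU×IB, with a median difference of -0.04 (1 of 6 at an unadjusted p under 0.05). CUL1, the scaffold of that ligase, was at 9.68 in IB and 9.69 in DU×IB. FBXL4, an F-box protein of mitochondrial quality control, had 7.62 and 7.06, a difference of -0.56 with an unadjusted p of 0.0228 and a limma adjusted p of 0.445, and a difference of -0.02 in the series of 16 against -1.28 in the series of 12. FBXO25 was not analysed here.

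Of the p53 targets and cell cycle inhibitors 21 of 47 were measured, and the 20 other than CDKN1A were split evenly, 10 lower and 10 higher in DU×IB (1 of 20 at an unadjusted p under 0.05). CDKN1B, which encodes p27, the nearest relative of p21, had 4.93 in IB and 4.59 in DU×IB, and r = 0.60 with CDKN1A. Its limma adjusted p was 0.998 without series as a block and 0.326 with it. CCND2, the cyclin D2 that p21 and p27 bind with its kinase, had 7.83 and 8.53, a difference of 0.70 (unadjusted p = 0.0117, limma adjusted p = 0.344). Of the IGF, insulin and myostatin genes 9 of 49 were analysed here. Of these, 5 were lower in DU×IB and 4 higher (0 of 9 at an unadjusted p under 0.05). IGF2 is not among the genes analysed here. The paper reports IGF2 as its most significant gene between the genetic types, with the higher level in DU×IB. The lack of genes past the threshold in this list therefore does not extend to IGF2. AKT1, the kinase that phosphorylates FOXO proteins, had 7.38 and 7.63. FOXO1 had 8.04 and 8.00, a difference of -0.04 (limma adjusted p = 0.998).

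IB piglet 9 stood high for many genes of these lists and low for others. Of the 15 other atrophy genes it had the highest level of all 28 piglets in 7, of the glucocorticoid and FOXO list in 6 of 16, of the p53 list in 9 of 20 and of the autophagy list in 3 of 15, where it was the highest for 16.7% of all probe sets. The piglet ranked among the 4 lowest of 28 for 2 of the 15 atrophy genes (STUB1 and TNFRSF12A), 1 of the 16 glucocorticoid and FOXO genes (CITED2), 4 of the 20 p53 genes and 2 of the 15 autophagy genes, against 19.2% of all probe sets. GADD45A was at 11.26 in this piglet and at most 7.92 in the other IB piglets of its series, MSTN at 8.63 against 8.21, and MAP1LC3B at 11.25 against 10.12. Without it, 13 of 15 atrophy genes and 14 of 16 glucocorticoid and FOXO genes still had the lower mean in DU×IB, with medians of -0.18 and -0.17. For the fibroblast markers COL1A1 and THY1 it ranked 27 of 28, with IB piglet 12 lower still in their mean (6.83 against 7.16). Its mean over the macrophage markers was 5.40, the lowest of the IB group. Whether the condition of the sample has a part in its high values was not tested.

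Markers of other cell types were compared as well. Of the 9 macrophage and monocyte markers measured, all 9 had a lower mean in DU×IB and 0 passed the limma test, with a median difference of -0.40 (1 of 9 at an unadjusted p under 0.05). Their mean log2 level per piglet was 5.40 to 7.94 in IB, with the highest in IB piglet 1, and 5.28 to 5.97 in DU×IB. Of 4 adipocyte markers, 1 differed, RBP7, a retinol binding protein, which was higher in DU×IB at 4.45 against 2.87 (limma adjusted p = 0.0309). Its mean in IB is near the floor, below the 5th percentile of all values, 3.4. The DU×IB mean was above that of IB for 2 of these 4 and below it for the other 2, with 2 at an unadjusted p under 0.05. FABP4 was also higher in DU×IB, at 11.39 against 11.02 (limma adjusted p = 0.801), while CFD and PNPLA2 differed by -0.44 and -0.43 (limma adjusted p = 0.568 and 0.590). Of 2 fibroblast markers, COL1A1 was higher in DU×IB at 10.85 against 9.64, with a limma adjusted p of 0.0270 with series as a block and of 0.187 without it. Of 5 endothelial, 2 red cell and 4 muscle fibre markers 0 differed by limma (0 at an unadjusted p under 0.05), and of 14 lymphocyte markers none is analysed here. The part of these cell types in the levels of FBXO32, GABARAPL1 and CDKN1A was not tested.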

How the data were processed

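Loin muscle RNA of 28 piglets was hybridized to 1 array each. The authors scanned the arrays with GCOS, made log2 expression values with GCRMA in BRB-ArrayTools and filtered the probe sets. The deposited table holds these log2 values. GCRMA shares information between arrays, and the filter keeps variable probe sets only, so a gene outside the table is not thereby unexpressed. Array data carry no read depth, and the number of piglets limits the precision.

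Groups came from the labels, and series from the bioB and bioC spike-ins. Genetic types were compared with limma 3.58.1 in R 4.3.3 without covariate, with Benjamini-Hochberg adjustment over 5226 probe sets and a threshold of 0.10. Fits with series as a block, within series, with an interaction and without single piglets followed. Permutation tests used 100000 resamples or, within a series, all splits. Correlations were computed in Python 3.11.15 with scipy 1.17.1. The computations were tested on simulated data. Members and gene lists were chosen with earlier results of these data known. A gene with several probe sets was represented by the one of highest mean in lists and rankings. Named genes were the 3 genes with every probe set, the 5 most correlated named genes for each, close relatives, list members past the threshold and, as marked, genes chosen after their values were seen. Of the probe sets, 572 were named from the tables of the study and 2073 from the annotation of the array, 46 had several genes and 2535 none.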

Additional observations from a re-analysis of the deposited data

Results flagged for a closer look

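In 3 of the 16 groups of 1 probe set, genetic type and series, 1 piglet stood far from the others by the share of the range that separates it from its nearest neighbour (Dixon's test at the 95% level, which flags about 1 in 20 groups by chance). DU×IB piglet 14, with 9.94 for the brighter FBXO32 probe set against 7.55 in the next of the 6 piglets, had a share of 0.766. The same piglet had 8.10 against 5.95 for the dimmer probe set, a share of 0.643. DU×IB piglet 7, with 8.90 against 6.29 in the next of 8 piglets for the dimmer probe set, had a share of 0.558. Over all probe sets 9.47% of such groups passed. IB piglet 9 did not pass for any of the 4 probe sets, with shares of 0.333 to 0.504.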

How the results depend on the processing

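No alternative brought a difference between genetic types past the adjusted threshold or turned its sign, for any of the 4 probe sets. The unadjusted permutation p of CDKN1A, for its difference of -0.58, was 0.0225, and 0.0180 when shuffled within series, the latter chosen after seeing the data, as were leaving out piglets with series as a block, centring with that block and leaving out IB piglet 9 in the interaction, the lists and the correlations. The interaction of CDKN1A was 0.0057 without IB piglet 9, a turn of sign near 0. The number of probe sets that differed was 52 over all piglets, 145 with series as a block, and 9 and 229 over the piglets of the series of 16 and of 12 alone. With the replicate number as a replicate block it was also 145, and the differences of the 4 probe sets were the same, with limma adjusted p-values of 0.686, 0.531, 0.325 and 0.234. The labels do not say that the numbers pair the piglets, and a pairing was not tested. Deviations of same-numbered piglets from the means of type had r over 0.1 in 12 of 14 pairs (0.02 to 0.73). For deviations from the means of type and series this was 2 of 14 (-0.33 to 0.54), and the own number was the best match in 2 and 1.

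Between series, GABARAPL1 was 0.261 with centring and 0.260 with quantile normalization (limma adjusted p = 0.305 and 0.302), and CDKN1A was -0.861 and -0.694 (limma adjusted p = 0.00398 and 0.0140). CDKN1A was -0.534 within DU×IB (limma adjusted p = 0.0705), and -0.537 to -0.304 when leaving out 1 piglet. FBXO32 (brighter) was -0.057 within DU×IB. These scalings remove a shift in the general level of the arrays by construction. They do not remove the series differences of single probe sets, as 69.3% of the probe sets still differed with centring. The correlation of FBXO32 and GABARAPL1 was 0.255 within the series of 16, and that of GABARAPL1 and CDKN1A was 0.101 with centring, 0.243 within the series of 12 and -0.32 within the series of 16.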
